A study of Mus musculus with 8 samples.

Results

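The genes described here are the WNT ligands, the receptors and co-receptors that bind them, the R-spondins with their LGR receptors, and the factors that secrete the ligands, 40 genes of the 46406 entries of the expression table. They were listed by name: 16 ligands, 10 Frizzled receptors, 5 co-receptors, 4 R-spondins, 3 LGR receptors and 2 secretion genes. The samples were poly(A) RNA libraries of anterior neural progenitor cells (AntNPC), a culture model of the early forebrain made from mouse embryonic stem cells. There were 2 libraries of PE Lhx5(-109)-/- clone 1, 2 libraries of PE Lhx5(-109)-/- clone 2 and 4 libraries of WT E14 cells. The null lines lack a poised enhancer (PE), named for its position relative to the forebrain gene Lhx5, which was removed with CRISPR-Cas9 and paired guide RNAs in E14 cells. Each null line is a single clone, so what the deletion did and what deriving a clone did cannot be told apart. All groups received 10 ng/ml bFgf for 3 days in serum-free N2B27 medium and then 2 more days without it. All of them, WT included, also received 5 µM Xav939 from day 2 to day 5. Xav939 is a tankyrase inhibitor that stabilises AXIN and so dampens beta-catenin signalling, and every level below was measured in its presence.

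WNT proteins are lipid-modified by the acyltransferase PORCN and carried to the cell surface by WLS. Outside the cell they bind Frizzled receptors together with LRP5 or LRP6, which stabilises beta-catenin, or with RYK, ROR1 or ROR2, which signal without it. R-spondins bind LGR receptors and hold off the ubiquitin ligases ZNRF3 and RNF43, so that more Frizzled stays on the surface. In the early neural tube, WNT signalling favours posterior and dorsal identity, and the forebrain forms where it is kept low.

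Values are in FPKM, fragments scaled to gene length and to the mapped fragments of the library, which the authors computed, so levels may be compared between genes. The sum of FPKM over all genes ran from 518491 to 528726 in the 8 libraries. Read depth per library is unknown, so no counting error is given. Lhx5, the check of the deletion, stood at 1.24 and 0.854 FPKM in clone 1 and 1.9 and 1.26 FPKM in clone 2, against 16.9, 17.5, 16.2 and 15.0 FPKM in WT. Neural progenitor markers were present in every group, with 10 of 10 tested and a summed level of 399 to 439 FPKM in clone 1, 480 to 530 FPKM in clone 2 and 468 to 492 FPKM in WT, though several of them differed between the groups, as given beside the other markers. Clone 1 replicate 2 stood apart in scale: the median ratio of its genes to their geometric mean over the libraries was 0.939, against 0.9999 to 1.022 in the other 7 libraries. WT replicate 2 stood apart from the other WT libraries for several of the genes below.

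Tests were made with limma on log2(FPKM + 1) over 14521 genes with a mean of at least 1 FPKM, with Benjamini-Hochberg adjustment and a threshold of 0.05. The log2 fold changes are on that scale, which understates the change of low genes. Of the 40 genes 28 were tested: 8 ligands, 10 Frizzled genes, 5 co-receptors, 2 R-spondins, 1 LGR receptor and both secretion genes. Rspo2 reached the filter mainly through clone 2. Its place among the tested genes, and in the counts for clone 2, is thus not independent of its difference. The other 12 lay under the filter and are described separately. Some of the genes that differed between the clones are placed here in GRCm38 coordinates. Rspo2 (ENSMUSG00000051920) spans 43020794 to 43170826 on the minus strand of chromosome 15. Fzd10 (ENSMUSG00000081683) spans 128600844 to 128604093 on the plus strand of chromosome 5, which also holds Lhx5 at 120431699 to 120441223. Fzd5 (ENSMUSG00000045005) spans 64730558 to 64737751 on the minus strand of chromosome 1, and Wls (ENSMUSG00000028173) spans 159839672 to 159938664 on the plus strand of chromosome 3.

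The promoters of 26 of the 40 genes, 29 in all, were found in a RefSeq table of mouse promoters (GRCm38.p6), each 300 bases long with 250 before and 50 after the start. Most were rich in CG pairs, meaning a C followed by a G on the same strand, which make up CpG islands. The median was 31 CG pairs per promoter, with a range of 4 to 58, against a median of 7 over the 32851 promoters of the table. The promoters of 4 genes named in the results are shown, and whether their sequence bears on the levels was not tested. Wnt3a and Wnt9a are neighbours on chromosome 11 whose starts face away from each other, Fzd10 was among the members that differed most between the null clones, and Fzd5 differed in the other direction. Capitals mark CG pairs, of which there are 45, 58, 45 and 38 in the order shown, and each sequence runs 5′ to 3′ on the strand of its gene. They lie at chr11:59290702-59291001 (minus strand), chr11:59306680-59306979 (plus strand), chr5:128600856-128601155 (plus strand) and chr1:64737701-64738000 (minus strand).
Wnt3a: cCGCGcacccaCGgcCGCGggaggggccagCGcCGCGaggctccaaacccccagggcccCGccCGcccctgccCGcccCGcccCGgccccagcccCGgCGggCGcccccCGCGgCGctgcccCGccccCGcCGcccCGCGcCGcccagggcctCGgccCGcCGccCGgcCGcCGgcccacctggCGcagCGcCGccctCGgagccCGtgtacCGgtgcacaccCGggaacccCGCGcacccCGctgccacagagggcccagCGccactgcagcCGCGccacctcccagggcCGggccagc
Wnt9a: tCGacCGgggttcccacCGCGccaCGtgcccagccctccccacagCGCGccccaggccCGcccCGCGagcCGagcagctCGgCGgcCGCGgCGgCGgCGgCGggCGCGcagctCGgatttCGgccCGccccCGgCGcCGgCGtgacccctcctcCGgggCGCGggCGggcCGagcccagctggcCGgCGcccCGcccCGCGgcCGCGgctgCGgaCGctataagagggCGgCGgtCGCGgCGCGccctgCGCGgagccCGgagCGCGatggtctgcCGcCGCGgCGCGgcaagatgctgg
Fzd10: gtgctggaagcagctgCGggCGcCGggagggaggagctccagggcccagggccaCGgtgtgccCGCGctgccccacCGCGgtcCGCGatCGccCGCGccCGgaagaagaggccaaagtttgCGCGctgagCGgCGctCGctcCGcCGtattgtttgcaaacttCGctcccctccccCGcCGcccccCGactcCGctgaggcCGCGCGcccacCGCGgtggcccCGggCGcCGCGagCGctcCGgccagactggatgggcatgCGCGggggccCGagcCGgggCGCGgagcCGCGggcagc
Fzd5: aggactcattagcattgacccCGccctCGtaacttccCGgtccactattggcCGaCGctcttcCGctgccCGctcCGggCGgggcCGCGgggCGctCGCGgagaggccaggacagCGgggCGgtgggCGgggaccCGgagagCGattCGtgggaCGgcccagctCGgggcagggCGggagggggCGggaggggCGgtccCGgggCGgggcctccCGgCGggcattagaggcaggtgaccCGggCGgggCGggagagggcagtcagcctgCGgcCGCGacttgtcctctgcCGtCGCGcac

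The letters CTTTGAT, the core bound by TCF and LEF factors, were searched on both strands. They occurred in 2 of the 29 promoters (6.9 percent), against 3.73 percent of all promoters in the table. The matches were in Wnt11 and in 1 of the 3 promoters listed for Wnt5b. That Wnt5b promoter lies at chr6:119449337-119449636 on the minus strand and is shown with the match in capitals, since Wnt5b is a tested ligand and Wnt11 is not.
Wnt5b: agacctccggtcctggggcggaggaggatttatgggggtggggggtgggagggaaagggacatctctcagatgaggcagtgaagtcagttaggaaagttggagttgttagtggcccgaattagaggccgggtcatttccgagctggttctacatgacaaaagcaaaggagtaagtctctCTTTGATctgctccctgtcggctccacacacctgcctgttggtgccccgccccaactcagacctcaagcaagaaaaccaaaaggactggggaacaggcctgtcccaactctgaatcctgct

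**Figure D1:**
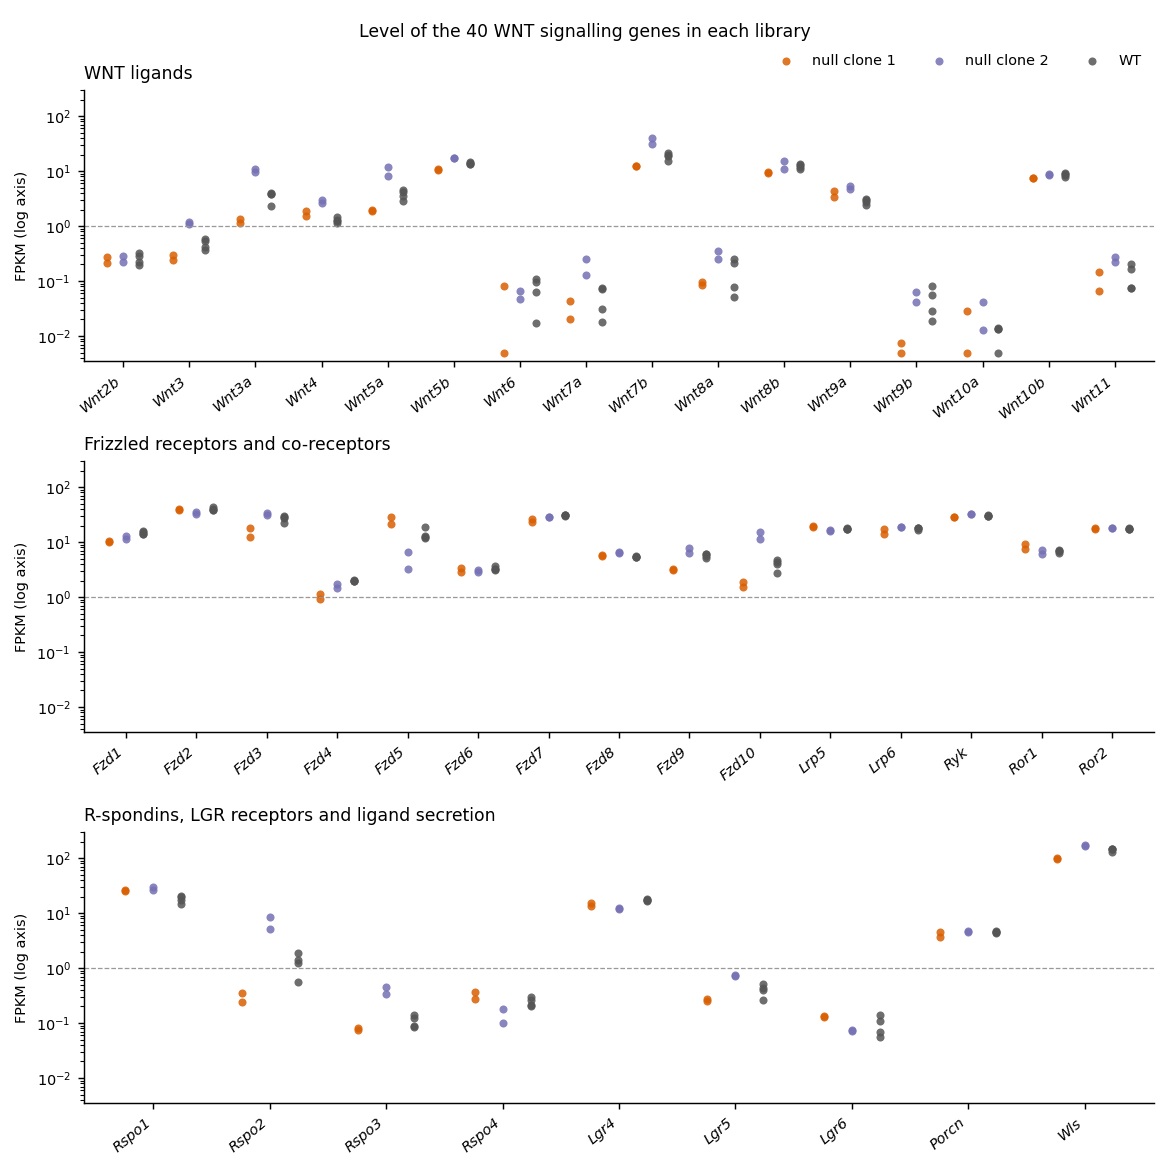
FPKM (log axis) of the 40 genes, by role, with 1 point per library: null clone 1 (orange, n = 2), null clone 2 (purple, n = 2) and WT (grey, n = 4). The dashed line marks 1 FPKM, and values listed at 0 (Wnt6, Wnt9b, Wnt10a) are drawn at the bottom of the axis. Wls lies highest at 97.6 to 170 FPKM, and 8 of the 16 ligands lie near or under the line.

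Clone 1 had lower levels of many of these genes than WT. Of the 28 tested, 12 were lower and 1 was higher, which is 46.4 percent called, against 15.6 percent of all genes tested (11.4 percent lower and 4.16 percent higher). The median log2 fold change was -0.22, against -0.048 over all genes. The lower genes were Wnt3a, Wnt5a, Wnt5b, Wnt7b, Fzd1, Fzd3, Fzd4, Fzd7, Fzd9, Fzd10, Lgr4 and Wls, and the higher one was Rspo1. In bulk RNA such as this, fewer cells of a type and less RNA per cell cannot be told apart. Rescaling each library to a common median gave 4 higher (Lrp5, Ror1, Rspo1 and Wnt9a) and 11 lower, with Wnt7b lost. The share of all genes called was then 13.5 percent. Without clone 1 replicate 2, 3 of the 13 passed, namely Fzd9, Wls and Wnt5b, while over all genes the share called was 3.05 percent. The count was 8 without WT replicate 1, 7 without WT replicate 3 and 8 without WT replicate 4, with 7.40, 7.15 and 6.83 percent of all genes called under the same settings.

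Clone 2 went mostly the other way. Of the 28, 10 were higher than in WT and 4 were lower, while 14.0 percent of all genes were called (7.06 percent higher and 6.96 percent lower). The median log2 fold change was 0.11, against 0.0 over all genes. The higher genes were Wnt3a, Wnt4, Wnt5a, Wnt5b, Wnt7b, Wnt9a, Fzd10, Rspo1, Rspo2 and Wls, and the lower ones were Fzd1, Fzd2, Fzd5 and Lgr4. Without clone 2 replicate 2, only Fzd10 and Wnt3a of the 14 passed, and 174 of the 14521 genes did. Leaving out 1 null library leaves its clone with a single library, which is then assumed to vary like the others.

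Both clones were set against the same WT libraries, so the clones were also compared with each other. Clone 2 was higher than clone 1 for 12 of the 28 and lower for 2, Fzd5 and Lrp5. Over all genes 39.9 percent differed between the clones (24.9 percent higher in clone 2 and 15.0 percent lower), so that 14 of 28 is not far above the share of genes at large. The median log2 difference was 0.24, against 0.045 over all genes. Rescaling gave 11 higher and 5 lower, with 40.4 percent of all genes called. Among the 14, Fzd3, Fzd9, Fzd10, Rspo2, Wls, Wnt3a, Wnt5a, Wnt5b and Wnt7b passed under each of the 13 alternative settings run.

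**Figure D2:**
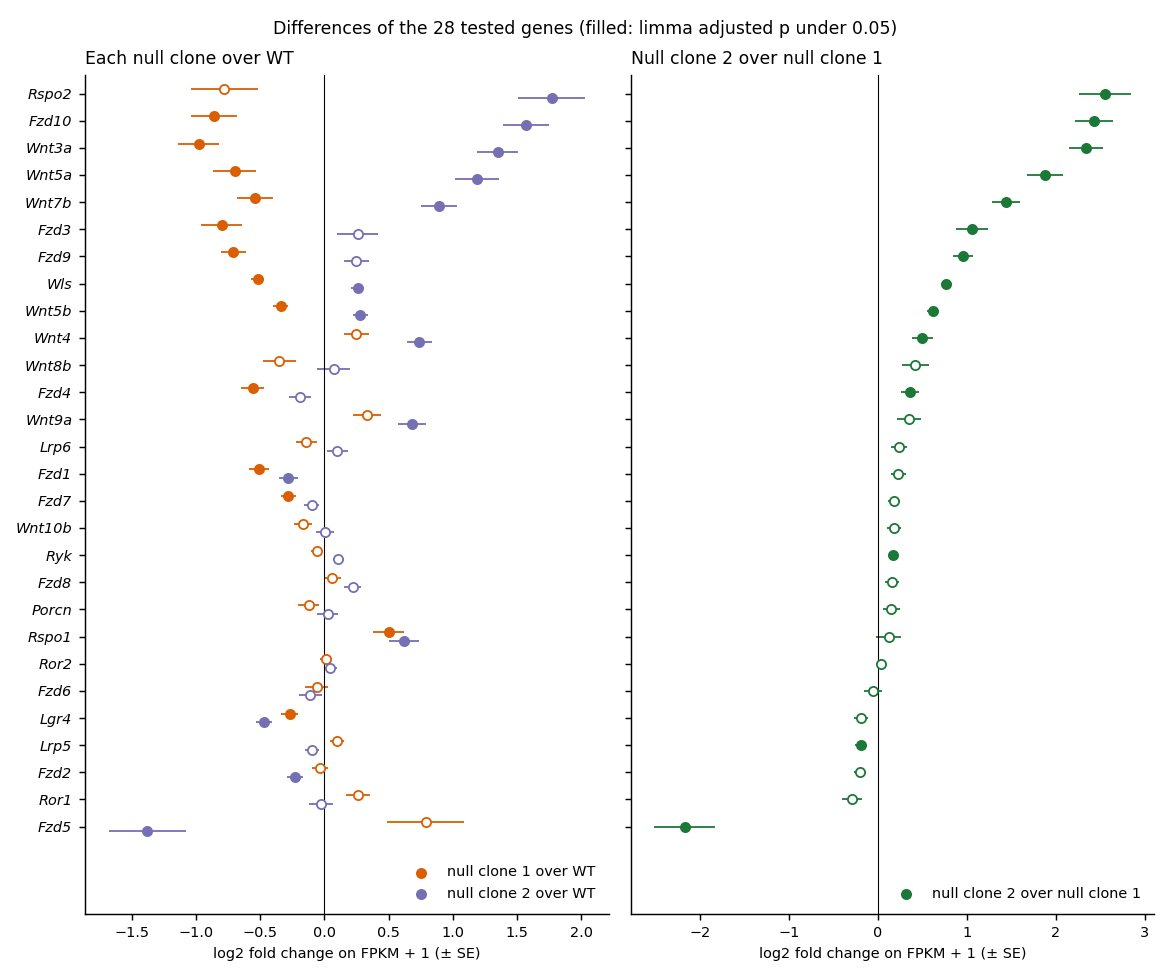
Log2 fold change on FPKM + 1 (± SE) of the 28 tested genes. Left, null clone 1 over WT (orange) and null clone 2 over WT (purple). Right, null clone 2 over null clone 1. Filled points passed limma's adjusted p of 0.05. Genes run from Rspo2 at the top (2.55 between the clones) to Fzd5 at the bottom (-2.17).

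The ligands Wnt3a, Wnt5a, Wnt7b and Wnt5b lay below WT in clone 1 and above WT in clone 2 in every library. Wnt3a, a ligand that acts through beta-catenin and is needed for the hippocampus, stood at 1.15 and 1.34 FPKM in clone 1 and 11.1 and 9.63 FPKM in clone 2, against 3.89, 2.32, 3.79 and 3.92 FPKM in WT. Its mean level was thus 35.7 percent of WT in clone 1 and 297 percent in clone 2, an 8.31-fold difference between the clones. The limma log2 fold change was -0.98 (SE 0.16, adjusted p = 0.00918) in clone 1 and 1.35 (SE 0.16, adjusted p = 0.00409) in clone 2, with 2.34 (SE 0.19, adjusted p = 0.000196) between the clones. Without clone 1 replicate 2 the clone 1 change was -1.04 at an adjusted p = 0.0607 in limma. The 3 groups did not overlap. The share of all genes whose groups lie apart was not counted, here or for the genes below.

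Wnt5a, the main ligand of the beta-catenin-independent branch, had 1.86 and 1.96 FPKM in clone 1 and 7.98 and 11.9 FPKM in clone 2, against 4.48, 2.9, 4.2 and 3.45 FPKM in WT. Wnt7b, a ligand of neural epithelium and forebrain vessels, had 12.5 and 12.6 FPKM in clone 1 and 31.6 and 40.3 FPKM in clone 2, against 21.7, 15.2, 19.7 and 18.9 FPKM in WT. Again no groups overlapped, and in both genes WT replicate 2 was the WT library nearest to clone 1. Limma gave log2 fold changes of -0.7 (SE 0.17, adjusted p = 0.0302) in clone 1 and 1.19 (SE 0.17, adjusted p = 0.00709) in clone 2 for Wnt5a. For Wnt7b they were -0.54 (SE 0.14, adjusted p = 0.0351) in clone 1 and 0.89 (SE 0.14, adjusted p = 0.00955) in clone 2. The clones differed by 1.88 for Wnt5a (limma adjusted p = 0.000468) and by 1.44 for Wnt7b (limma adjusted p = 0.000616). The clone 1 calls of these 2 genes were among the least stable. They were lost without either clone 1 library, without WT replicate 1, 3 or 4, with no filter and with eBayes run without trend and robust, at limma adjusted p-values of up to 0.137 for Wnt5a and 0.163 for Wnt7b. Rescaling also ended the Wnt7b call (limma adjusted p = 0.0696). Among the 13 alternatives, the clone 2 calls were lost only without replicate 2 of that clone (limma adjusted p = 0.0631 for Wnt5a and 0.0925 for Wnt7b). Wnt5a overlaps Gm2670 and Wnt7b overlaps AU022754 on the opposite strand, at up to 0.699 and 0.545 FPKM. Whether counting used the strand is not stated in the sources used here.

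Wnt5b, a close relative of Wnt5a, changed less but with little spread. It had 10.5 and 11.1 FPKM in clone 1 and 17.1 and 17.2 FPKM in clone 2, against 14.2, 14.6, 13.2 and 13.7 FPKM in WT. Its log2 fold change was -0.34 (SE 0.06, limma adjusted p = 0.0108) in clone 1 and 0.28 (SE 0.06, limma adjusted p = 0.0211) in clone 2. The clone 2 call was lost without either clone 2 library and without WT replicate 3 or 4 (limma adjusted p up to 0.189), whereas the clone 1 call held in all 13 alternatives.

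Wnt4 and Wnt9a behaved differently, since both clones lay above every WT library. Wnt4, a ligand known from kidney and gonad development, had 1.9 and 1.54 FPKM in clone 1 and 2.64 and 3.02 FPKM in clone 2, against 1.47, 1.29, 1.25 and 1.15 FPKM in WT. Wnt9a, a ligand known from joint formation, had 4.26 and 3.34 FPKM in clone 1 and 5.46 and 4.7 FPKM in clone 2, against 2.41, 2.98, 3.07 and 2.74 FPKM in WT. Only clone 2 passed the test against WT, with log2 fold changes of 0.74 for Wnt4 (SE 0.1, limma adjusted p = 0.00524) and 0.68 for Wnt9a (SE 0.11, limma adjusted p = 0.00993), and neither passed without clone 2 replicate 2 (limma adjusted p = 0.0631 and 0.0566). In clone 1 the values were 0.25 for Wnt4 (limma adjusted p = 0.125) and 0.33 for Wnt9a (limma adjusted p = 0.0765). Between the clones Wnt4 differed by 0.5 (limma adjusted p = 0.00972), a call lost without replicate 2 of clone 1 (limma adjusted p = 0.0507) or of clone 2 (limma adjusted p = 0.0713), and Wnt9a by 0.35 (limma adjusted p = 0.0622), which passed without clone 1 replicate 1.

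Wnt8b and Wnt10b did not pass in any comparison. Wnt8b, a ligand of the dorsal forebrain midline, had 9.42 and 9.54 FPKM in clone 1 and 15.5 and 10.9 FPKM in clone 2, against 13.1, 10.9, 13.7 and 11.8 FPKM in WT. Of its clone 2 libraries, 1 lay above the WT range and 1 at its lower end, and its clone 1 difference of -0.35 had a limma adjusted p = 0.106, but it passed as lower without either clone 2 library and when clone 1 and WT were fitted alone, and between the clones it passed as higher in clone 2 without clone 2 replicate 2. Wnt10b ranged from 7.49 to 9.19 FPKM over the 8 libraries.

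Wnt3a and Wnt9a share a stretch of chromosome 11. Wnt3a spans 59248033 to 59290752 on the minus strand and Wnt9a spans 59306928 to 59333552 on the plus strand (GRCm38), so that their starts are 16.2 kb apart. In clone 1 Wnt3a stood at 35.7 percent of its WT mean and Wnt9a at 136 percent, and in clone 2 Wnt3a stood at 297 percent and Wnt9a at 181 percent. Wnt10b has Wnt1 as its neighbour on chromosome 15, 11.7 kb away. Wnt10b averaged 7.52 FPKM in clone 1 and 8.63 FPKM in clone 2, against 8.61 FPKM in WT, while Wnt1 stood at 48.1 percent of WT in clone 1 and 174 percent in clone 2.

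Wnt1, a ligand of the midbrain-hindbrain boundary that is not among the 40, had a higher level than any of the 16 ligands in every library. It had 43.4 and 50.9 FPKM in clone 1 and 165 and 177 FPKM in clone 2, against 98.1 ± 8.81 FPKM in WT (mean ± SD, n = 4). In WT the order of the others was Wnt7b at 18.9 ± 2.71, Wnt5b at 13.9 ± 0.629, Wnt8b at 12.4 ± 1.28, Wnt10b at 8.61 ± 0.538, Wnt5a at 3.76 ± 0.72, Wnt3a at 3.48 ± 0.777, Wnt9a at 2.8 ± 0.297 and Wnt4 at 1.29 ± 0.134 FPKM (mean ± SD, n = 4). The WT ranges of Wnt5b and Wnt8b overlapped, as did those of Wnt5a, Wnt3a and Wnt9a. The 16 ligands summed to 49.8 FPKM in each clone 1 library and to 102 to 108 FPKM in clone 2, against 59.8 to 70.5 FPKM in WT. Wnt3a made up 2.31 to 2.69 percent of that sum in clone 1 and 8.88 to 10.8 percent in clone 2, against 3.88 to 5.92 percent in WT. Wnt9a and Wnt4, with 3.8 ± 0.652 and 1.72 ± 0.25 FPKM in clone 1 (mean ± SD, n = 2), stood above Wnt3a there.

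**Figure D3:**
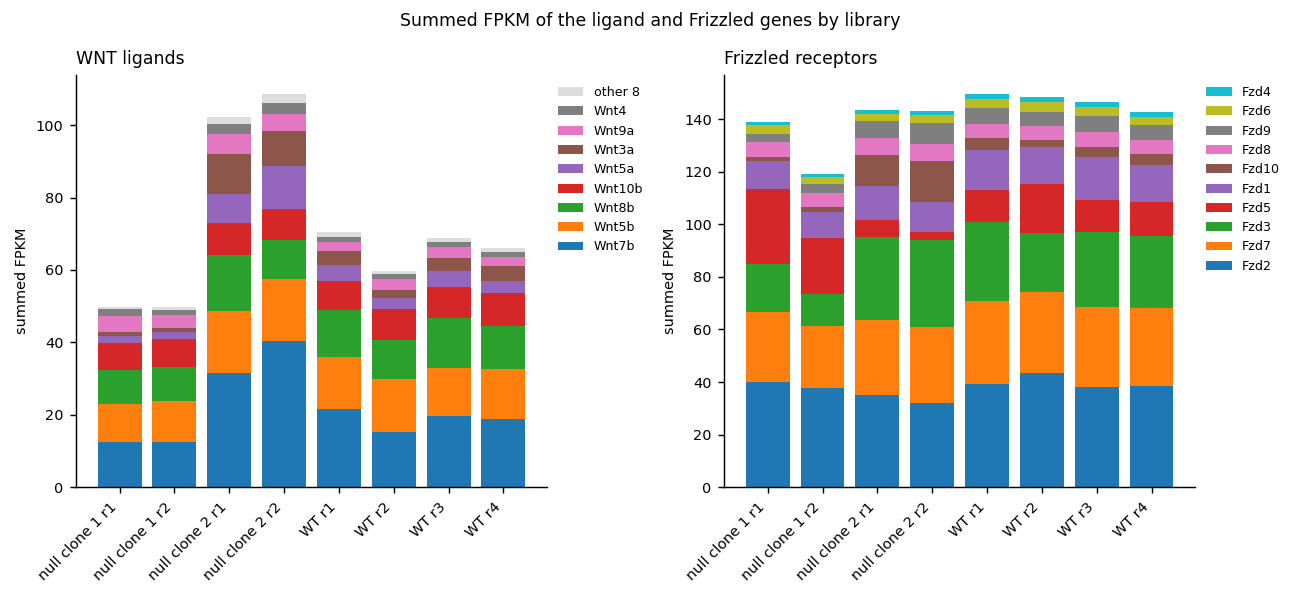
Stacked FPKM of the 16 ligands (left, the 8 highest named) and the 10 Frizzled receptors (right) in each library, with r for replicate. The ligand sum was 49.8 FPKM in clone 1 and 102 to 108 FPKM in clone 2, against 59.8 to 70.5 FPKM in WT, whereas the Frizzled sum was 119 to 139 FPKM in clone 1 and 143 to 144 FPKM in clone 2, against 143 to 149 FPKM in WT.

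Of the secretion genes, Wls was lower in clone 1 and higher in clone 2. Wls, the carrier that takes WNT proteins to the surface, was at 97.6 and 98.4 FPKM in clone 1 and 167 and 170 FPKM in clone 2, against 145, 129, 145 and 144 FPKM in WT. It had the highest level of the 40 genes in every library, and its 3 groups did not overlap. Limma gave -0.52 (SE 0.05, adjusted p = 0.00166) in clone 1, 0.26 (SE 0.05, adjusted p = 0.0175) in clone 2 and 0.77 (SE 0.058, adjusted p = 0.000161) between the clones. The clone 2 call was lost without clone 2 replicate 2 (limma adjusted p = 0.172). Porcn, which adds the lipid, ranged from 3.66 to 4.71 FPKM over all libraries and passed in no comparison.

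The 10 Frizzled genes were all expressed, and they changed unequally. In clone 1, 6 were lower than WT and none was higher. In clone 2, Fzd10 was higher and Fzd1, Fzd2 and Fzd5 were lower. In WT the order of mean levels was Fzd2, Fzd7, Fzd3, Fzd1, Fzd5, Fzd9, Fzd8, Fzd10, Fzd6 and Fzd4, from 39.9 ± 2.32 down to 1.98 ± 0.0407 FPKM (mean ± SD, n = 4). The WT ranges of Fzd7 and Fzd3 overlapped, and so did those of Fzd1 and Fzd5, of Fzd9 and Fzd8 and of Fzd10 and Fzd6.

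Fzd10, a receptor of the dorsal neural tube, had 1.51 and 1.84 FPKM in clone 1 and 11.6 and 15.4 FPKM in clone 2, against 4.7, 2.7, 3.97 and 4.31 FPKM in WT. This was an 8.04-fold difference between the clones, close to that of Wnt3a, and the 3 groups did not overlap. The log2 fold change was -0.86 (SE 0.18, limma adjusted p = 0.0181) in clone 1, 1.57 (SE 0.18, limma adjusted p = 0.00407) in clone 2 and 2.43 (SE 0.21, limma adjusted p = 0.000261) between the clones. The clone 1 call was lost without either clone 1 library, without WT replicate 3 and without WT replicate 4 (limma adjusted p between 0.0511 and 0.086), and the clone 2 call held in all 13 alternatives.

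Fzd5, a receptor of the eye field and optic cup, went the other way. It had 28.5 and 21.2 FPKM in clone 1 and 6.7 and 3.21 FPKM in clone 2, against 12.1, 18.6, 12.5 and 12.8 FPKM in WT. Clone 1 lay above and clone 2 below every WT library, and the replicates of each line also differed among themselves. Limma gave 0.79 (SE 0.3, adjusted p = 0.131) in clone 1, -1.38 (SE 0.3, adjusted p = 0.0356) in clone 2 and -2.17 (SE 0.34, adjusted p = 0.00488) between the clones. The clone 2 call was lost without clone 2 replicate 2 (-0.94, limma adjusted p = 0.196) and without any single WT library (limma adjusted p between 0.0612 and 0.0818), and the call between the clones was lost when the 2 clones were fitted alone (limma adjusted p = 0.0535). Gm38058, which overlaps Fzd5 on the opposite strand, had 5.84 and 4.08 FPKM in clone 1 and 1.55 and 0.661 FPKM in clone 2, against 2.38, 3.9, 2.68 and 2.67 FPKM in WT, so reads of these 2 genes may not be separable.

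Fzd3 and Fzd9 passed against WT in clone 1 and not in clone 2. Fzd3, a receptor needed for axon guidance, had 18.2 and 12.4 FPKM in clone 1 and 31.7 and 33.2 FPKM in clone 2, against 30.0, 22.4, 28.2 and 27.5 FPKM in WT. Fzd9 had 3.1 and 3.21 FPKM in clone 1 and 6.33 and 7.93 FPKM in clone 2, against 6.07, 5.22, 6.17 and 5.7 FPKM in WT. Both had every clone 1 library below and every clone 2 library above WT. For Fzd3 limma gave -0.8 (SE 0.16, adjusted p = 0.0187) in clone 1 and 0.26 (SE 0.16, adjusted p = 0.303) in clone 2. For Fzd9 it gave -0.71 (SE 0.098, adjusted p = 0.0047) in clone 1 and 0.25 (SE 0.098, adjusted p = 0.115) in clone 2. The clones differed by 1.06 for Fzd3 (limma adjusted p = 0.00388) and 0.96 for Fzd9 (limma adjusted p = 0.000566). The clone 1 call of Fzd3 was lost without clone 1 replicate 2 (-0.54, limma adjusted p = 0.0819), WT replicate 3 (limma adjusted p = 0.0549) or WT replicate 4 (limma adjusted p = 0.0546).

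Fzd1, Fzd4 and Fzd7 lay below WT in both clones, and further below it in clone 1. Fzd1 had 10.5 and 9.86 FPKM in clone 1 and 12.9 and 11.4 FPKM in clone 2, against 15.2, 14.3, 16.1 and 14.1 FPKM in WT. Its log2 fold change was -0.51 (SE 0.075, limma adjusted p = 0.0058) in clone 1 and -0.28 (SE 0.075, limma adjusted p = 0.0397) in clone 2. The clone 1 call was lost without clone 1 replicate 2 (limma adjusted p = 0.051), and the clone 2 call without clone 2 replicate 2 or any single WT library, with no filter and with eBayes run without trend and robust (limma adjusted p between 0.0533 and 0.347). Fzd4, also the receptor of Norrin, had 1.13 and 0.93 FPKM in clone 1 and 1.49 and 1.72 FPKM in clone 2, against 1.94, 1.95, 2.03 and 1.98 FPKM in WT. Its change was -0.56 in clone 1 (SE 0.086, limma adjusted p = 0.00717) and -0.19 in clone 2 (limma adjusted p = 0.172), with 0.36 between the clones (limma adjusted p = 0.0193). With a pseudocount of 0.1 FPKM the values for this low gene were -0.89 in clone 1 and 0.6 between the clones. The clone 1 call was lost without clone 1 replicate 2 (limma adjusted p = 0.051), and the call between the clones without replicate 2 of clone 1 (limma adjusted p = 0.0728) or of clone 2 (limma adjusted p = 0.117) and when the 2 clones were fitted alone (limma adjusted p = 0.0978).

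Fzd7 had 26.8 and 23.3 FPKM in clone 1 and 28.2 and 28.6 FPKM in clone 2, against 31.6, 30.9, 30.5 and 29.4 FPKM in WT. Its clone 1 change of -0.28 (SE 0.061, limma adjusted p = 0.0186) was lost without clone 1 replicate 2 (limma adjusted p = 0.0904), WT replicate 1 (limma adjusted p = 0.052) or WT replicate 3 (limma adjusted p = 0.0514). Fzd2, the Frizzled gene with the highest WT mean, had 40.0 and 37.9 FPKM in clone 1 and 35.2 and 32.2 FPKM in clone 2, against 39.3, 43.3, 38.2 and 38.6 FPKM in WT. Only its clone 2 libraries lay outside the WT range on the same side, at -0.23 (SE 0.063, limma adjusted p = 0.0415), and this call was lost without either clone 2 library or any single WT library, with no filter and with eBayes run without trend and robust (limma adjusted p between 0.0501 and 0.348). Fzd6 passed in no comparison, with 2.84 to 3.61 FPKM over the 8 libraries. Fzd8 had 5.85 and 5.55 FPKM in clone 1 and 6.5 and 6.46 FPKM in clone 2, against 5.3, 5.32, 5.66 and 5.38 FPKM in WT. Both of its clone 2 libraries lay above every WT library, at 0.22 (SE 0.064, limma adjusted p = 0.0518). It passed as higher in clone 2 on rescaling, with eBayes run without trend and robust, without either clone 1 library and when clone 2 and WT were fitted alone.

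The make-up of the Frizzled pool differed more than its total. Fzd5 supplied 17.8 to 20.5 percent of the Frizzled FPKM in clone 1 and 2.24 to 4.67 percent in clone 2, against 8.08 to 12.5 percent in WT. Fzd10 supplied 1.09 to 1.55 percent in clone 1 and 8.11 to 10.7 percent in clone 2, against 1.82 to 3.14 percent in WT. In clone 2 Fzd10 stood above Fzd5, at 13.5 ± 2.64 against 4.95 ± 2.47 FPKM (mean ± SD, n = 2), while in clone 1 and WT Fzd5 stood above Fzd10.

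None of the 5 co-receptors passed against WT in either clone, but Lrp5 and Ror1 passed as higher in clone 1 on rescaling. Ror2, a receptor of WNT5A, was at 17.5 and 17.8 FPKM in clone 1 and 18.4 and 17.8 FPKM in clone 2, against 17.4, 17.3, 17.5 and 17.8 FPKM in WT. Its log2 fold change was 0.011 ± 0.048 in clone 1 and 0.047 ± 0.048 in clone 2 (± SE). Ryk, the co-receptor with the highest WT level, was at 28.8 FPKM in both libraries of clone 1 and at 32.7 and 32.5 FPKM in clone 2, against 30.4, 30.7, 29.3 and 30.0 FPKM in WT. It differed between the clones by 0.17 (SE 0.048, limma adjusted p = 0.0209), a call that was lost on rescaling (0.11, limma adjusted p = 0.0925) and without clone 2 replicate 1 (limma adjusted p = 0.08) or 2 (limma adjusted p = 0.0864), and when the 2 clones were fitted alone (limma adjusted p = 0.123).

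Lrp5 was at 19.4 and 18.5 FPKM in clone 1 and 16.2 and 16.7 FPKM in clone 2, against 17.5, 18.4, 17.0 and 17.5 FPKM in WT. The clones differed by -0.19 (SE 0.062, limma adjusted p = 0.0352), which was lost without clone 1 replicate 1, either clone 2 library or WT replicate 1, 3 or 4, and when the 2 clones were fitted alone (limma adjusted p between 0.0526 and 0.142). Lrp6, its close relative, ranged from 14.1 to 18.9 FPKM and Ror1 from 6.17 to 9.34 FPKM, and neither passed. Without clone 1 replicate 1, Lrp6 passed in clone 1 against WT and between the clones, and Ror1 passed between the clones on rescaling, without clone 1 replicate 2 and without clone 2 replicate 1.

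Among the R-spondins, Rspo2 and Rspo1 differed in their pattern. Rspo2 had 0.243 and 0.356 FPKM in clone 1 and 5.13 and 8.43 FPKM in clone 2, against 1.91, 0.569, 1.25 and 1.41 FPKM in WT. The clones differed 22.6-fold in mean FPKM, the most of the 28 tested genes, and no groups overlapped. That fold rests on low levels in clone 1, and Rspo2 reached the filter mainly through clone 2. Its rank and its calls are thus not independent of its high level there. Limma gave -0.78 (SE 0.26, adjusted p = 0.0776) in clone 1, 1.77 (SE 0.26, adjusted p = 0.00862) in clone 2 and 2.55 (SE 0.29, adjusted p = 0.000807) between the clones. With a pseudocount of 0.1 FPKM the difference between the clones was 4.08. With that pseudocount, and without WT replicate 2, Rspo2 also passed as lower in clone 1. The clone 2 call was lost without clone 2 replicate 2 (1.46, limma adjusted p = 0.0766).

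Rspo1 was higher than WT in both clones, with 25.2 and 26.2 FPKM in clone 1 and 26.5 and 29.6 FPKM in clone 2, against 17.4, 20.1, 20.0 and 14.7 FPKM in WT. All 4 null libraries lay above all 4 WT libraries. The log2 fold change was 0.5 (SE 0.12, limma adjusted p = 0.0277) in clone 1 and 0.62 (SE 0.12, limma adjusted p = 0.0174) in clone 2, and the clones differed by 0.12 ± 0.14 (± SE, limma adjusted p = 0.52). The clone 1 call was lost without either clone 1 library or WT replicate 1, with no filter and with eBayes run without trend and robust (limma adjusted p between 0.0506 and 0.153), and the clone 2 call without clone 2 replicate 2 (limma adjusted p = 0.182). Rspo1 supplied 97.3 to 97.4 percent of the R-spondin FPKM in clone 1 and 76.9 to 82.1 percent in clone 2, against 88.4 to 95.7 percent in WT.

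Lgr4, the only LGR receptor with a mean of at least 1 FPKM, was lower in both clones. It had 15.1 and 13.2 FPKM in clone 1 and 12.4 and 12.1 FPKM in clone 2, against 17.2, 18.1, 16.6 and 17.4 FPKM in WT. Every null library lay below every WT library. The log2 fold change was -0.27 (SE 0.065, limma adjusted p = 0.0264) in clone 1 and -0.47 (SE 0.065, limma adjusted p = 0.00595) in clone 2, with -0.19 between the clones (limma adjusted p = 0.0719). The clone 1 call was lost without clone 1 replicate 2 or WT replicate 1, 3 or 4 and with no filter (limma adjusted p between 0.0507 and 0.129), and the clone 2 call without clone 2 replicate 2 (limma adjusted p = 0.0675).

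**Figure D4:**
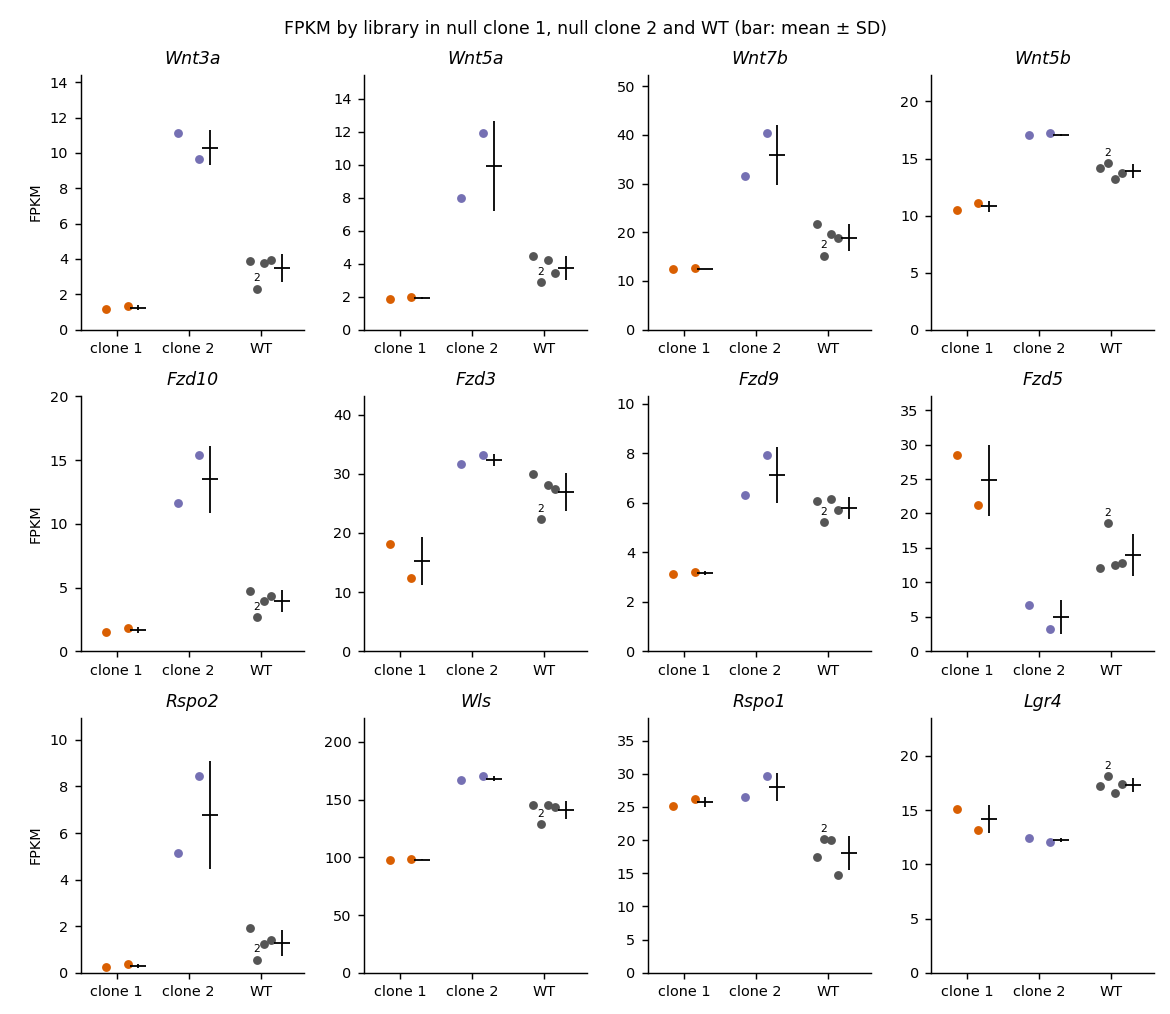
FPKM of 12 genes in each library of null clone 1, null clone 2 and WT, with mean ± SD beside the points (n = 2, 2 and 4) and WT replicate 2 marked with its number. For Fzd5 clone 1 lies above WT and clone 2 below it, Rspo1 is above and Lgr4 below WT in both clones, and the other 9 lie below WT in clone 1 and above it in clone 2. The share of all genes that lie apart in these ways was not counted.

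The 12 genes under the filter were Wnt2b, Wnt3, Wnt6, Wnt7a, Wnt8a, Wnt9b, Wnt10a, Wnt11, Rspo3, Rspo4, Lgr5 and Lgr6. An exact 0, which may be a failed estimate, was listed for Wnt6 and Wnt9b in 1 library each and for Wnt10a in 2. Wnt3 had 0.243 and 0.296 FPKM in clone 1 and 1.1 and 1.19 FPKM in clone 2, against 0.414, 0.374, 0.525 and 0.59 FPKM in WT. Lgr5, a receptor that is itself a WNT target, had 0.269 and 0.256 FPKM in clone 1 and 0.751 and 0.725 FPKM in clone 2, against 0.431, 0.259, 0.503 and 0.4 FPKM in WT. Rspo3 had 0.0829 and 0.0743 FPKM in clone 1 and 0.459 and 0.337 FPKM in clone 2, against 0.0878, 0.0857, 0.124 and 0.138 FPKM in WT. In all 3 the clone 2 libraries were the highest. When no filter was set, Wnt3 (0.54, limma adjusted p = 0.0212) and Rspo3 (0.33, limma adjusted p = 0.0228) passed in clone 2 against WT. Between the clones, Wnt3, Rspo3, Lgr5 and Wnt7a did so, at differences of 0.76, 0.37, 0.46 and 0.2 (limma adjusted p = 0.00277, 0.00549, 0.012 and 0.0324). With no filter, 4.10 percent of all genes were called in clone 2 against WT and 20.8 percent between the clones. The other 8 stayed between 0 and 0.363 FPKM in every library and passed in no comparison.

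Taking both clones as 1 null group of 4 libraries, 0 of the 28 passed limma's test against WT, with 7 at an unadjusted p under 0.05 (Fzd1, Fzd4, Fzd7, Lgr4, Rspo1, Wnt4 and Wnt9a). Over all genes 0.0551 percent passed (0.00689 percent higher and 0.0482 percent lower), and 4.74 percent had an unadjusted p under 0.05. The lowest adjusted p was 0.259, for Rspo1. The spread in this fit includes the difference between the clones, and Wnt3a, for example, averaged 5.79 ± 5.28 FPKM in null and 3.48 ± 0.777 FPKM in WT (SD, n = 4 each). The mean of both clones in the fit of 3 groups, whose error leaves out the difference between lines, called Fzd1 and Lgr4 lower and Rspo1 and Wnt4 higher, 4 of 28, against 0.730 percent of all genes.

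The authors' deposited table holds its own fold and p-value for null against WT. By the p-values of the authors' deposited table, 8 of the 40 genes had an unadjusted p under 0.05, against 4.79 percent of all genes, and 5 passed after adjustment here over 28134 genes, against 0.782 percent. In the authors' deposited table the folds of null over WT were 0.776 for Lgr4, 1.52 for Rspo1, 1.62 for Wnt9a, 0.762 for Fzd1 and 1.76 for Wnt4. The mean reads in the authors' deposited table were 2067.7 in null and 2663.2 in WT for Lgr4, and 1287 in null and 846 in WT for Rspo1. The test behind those p-values is not stated.

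The rest of the pathway was read through 5 lists of genes, whose counts stand beside 15.6 percent of all genes called in clone 1 against WT, 14.0 percent in clone 2 against WT and 39.9 percent between the clones. WNT feedback targets, genes that beta-catenin signalling switches on, had 10 of 13 tested. In clone 1, 1 was higher (Rnf43) and 3 were lower (Nkd1, Sp5 and Axin2), with a median of -0.25. In clone 2, 6 were higher and 1 was lower, with a median of 0.39, and between the clones 6 were higher in clone 2 and 1 was lower. Axin2, a negative regulator that many cells induce on WNT stimulation, had 34.4 and 32.1 FPKM in clone 1 and 53.4 and 57.7 FPKM in clone 2, against 42.4, 36.3, 41.6 and 41.5 FPKM in WT. Sp5, another such target, had 1.37 and 1.61 FPKM in clone 1 and 5.2 and 5.69 FPKM in clone 2, against 3.46, 2.03, 2.76 and 3.24 FPKM in WT. Both genes passed in both clones, in opposite directions, and between the clones Axin2 differed by 0.72 (limma adjusted p = 0.0005) and Sp5 by 1.37 (limma adjusted p = 0.000722). Of these, Fgf8 was also higher in clone 2, with 6.98 and 12.5 FPKM, against 3.08, 1.29, 2.63 and 2.37 FPKM in WT (1.67, limma adjusted p = 0.0175).

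Secreted and membrane antagonists had 10 of 21 tested, with 1 higher and 3 lower in clone 1 (median -0.089) and 2 higher and 4 lower in clone 2 (median -0.34). Sfrp1, which binds WNT proteins outside the cell, averaged 50.8 FPKM in clone 1 and 53.3 FPKM in clone 2, against 71.3 FPKM in WT. Frzb, of the same family, averaged 15.5 FPKM in clone 1 and 12.1 FPKM in clone 2, against 19.3 FPKM in WT. Both were lower in both clones by limma. Apcdd1, of the same list, was higher in both, averaging 28.5 FPKM in clone 1 and 43.4 FPKM in clone 2, against 23.2 FPKM in WT. Tpbg, a membrane inhibitor of LRP6 signalling, had 25.1 and 20.5 FPKM in clone 1 and 76.6 and 86.2 FPKM in clone 2, against 49.0, 36.2, 49.1 and 47.9 FPKM in WT, so its 3 groups did not overlap.

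Of 27 intracellular components tested, 1 was lower in clone 1 (Tle4, a transcriptional co-repressor), and in clone 2 there were 2 higher (Tle4 and Pygo1) and 1 lower (Tcf7l1), with medians of -0.11 in clone 1 and -0.024 in clone 2. Between the clones 9 were higher in clone 2 and 2 were lower, which is near the share of all genes. Ctnnb1, which encodes beta-catenin, averaged 303 FPKM in clone 1 and 337 FPKM in clone 2, against 328 FPKM in WT, and differed between the clones by 0.15 (limma adjusted p = 0.017). Of 14 planar cell polarity genes, 1 was higher and 4 were lower in clone 1, and 2 were higher and 3 lower in clone 2, with Celsr1 averaging 10.1 FPKM in clone 1 and 22.9 FPKM in clone 2, against 15.3 FPKM in WT. Of 12 proteoglycans and accessory receptors, 3 were lower in clone 1, and 1 was higher and 1 lower in clone 2. The lower one was Gpc4, a glypican, which averaged 23.2 FPKM in clone 1 and 8.71 FPKM in clone 2, against 19.2 FPKM in WT.

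Markers of regional and cell identity moved beside these genes, and their part in the results was not tested. Over all genes, 4.16 percent were higher and 11.4 percent lower in clone 1, and 7.06 percent higher and 6.96 percent lower in clone 2. In clone 2 against clone 1, 24.9 percent were higher and 15.0 percent lower. Among the neural progenitor markers, 5 of 10 were lower in clone 1 (Sox1, Cdh2, Sox3, Zbtb16 and Nes), with a median of -0.37, and in clone 2, 4 were higher (Fabp7, Sox1, Cdh2 and Nes) and Pax6 was lower, with a median of 0.24. Between the clones 7 were higher in clone 2 and 1 was lower. Pax6 had 32.1 and 30.3 FPKM in clone 1 and 17.8 and 11.1 FPKM in clone 2, against 38.8, 39.7, 39.8 and 36.2 FPKM in WT. Midbrain and hindbrain markers, a list that includes Wnt1 and Fgf8, summed to 149 to 157 FPKM in clone 1 and 354 to 391 FPKM in clone 2, against 195 to 233 FPKM in WT. Of the 10, 3 were lower and 1 higher in clone 1, 8 were higher in clone 2, and 10 were higher in clone 2 than in clone 1. Forebrain markers summed to 286 to 324 FPKM in clone 1 and 188 to 227 in clone 2, against 309 to 363 in WT. Most of this was Otx2, which averaged 211 FPKM in clone 1 and 166 FPKM in clone 2, against 206 FPKM in WT. Of the forebrain markers, 2 of 8 were lower in clone 1 (Lhx5 and Lhx2) and 6 of 8 in clone 2. Lhx5, the gene the enhancer is named for, is again 1 of those counted in clone 2. Pluripotency markers summed to 70.4 to 77.9 FPKM in clone 1 and 19.7 to 24.7 FPKM in clone 2, against 30.0 to 46.2 FPKM in WT, and 5 of 5 tested were higher in clone 1 than in WT. Surface ectoderm markers summed to 72.2 to 83.5 FPKM in clone 1 and 30.2 to 43.3 FPKM in clone 2, against 37.3 to 54.6 FPKM in WT. Of these, 3 of 5 tested were higher in clone 1 (Cldn6, Cdh1 and Epcam), while Trp63 was under 0.1 FPKM in every library. Neuron markers summed to 86.3 to 98.3 FPKM in clone 1 and 73.7 to 76.7 FPKM in clone 2, against 89.1 to 92.8 FPKM in WT, and neural crest markers to 18.9 to 23.0 FPKM in clone 1 and 16.0 to 17.6 FPKM in clone 2, against 13.9 to 17.0 FPKM in WT. Endoderm markers, nearly all of it Cxcr4, summed to 28.4 to 29.3 FPKM in clone 1 and 41.8 to 46.8 FPKM in clone 2, against 41.8 to 45.2 FPKM in WT. Mesoderm markers summed to at most 2.46 FPKM in any library, with Msgn1 listed at 0 and Mesp1 and Mixl1 under 0.1 FPKM throughout.

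WT replicate 2 lay toward clone 1 for many of these genes. Of the 14 that differed between the clones, it lay outside the other WT libraries on the clone 1 side for 10 (71.4 percent), on the clone 2 side for 2 and within them for 2. The same held for 64.2 percent of all 5794 genes that differed between the clones, so WNT genes were close to genes at large in this. Without WT replicate 2 the counts were 14 in clone 1, 11 in clone 2 and 15 between the clones. The shares of all genes called were then 17.5, 8.91 and 39.4 percent, in the same order.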

How the data were processed

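Poly(A) RNA libraries were made with TruSeq v2, per the labels' protocols, and the labels call the samples biological replicates. The authors deposited FPKM values of the 8 libraries, per the file headers, and with them the mean read count per genotype (a deposited signal column whose scaling is not stated), the fold (a deposited ratio of null to WT) and a deposited p-value from an unstated test. The submitters' processing notes name TopHat2, Cufflinks, DESeq2, SAMtools and FastQC, with no role for each, and give both mm10 and GRCm38 as build. How strand was used, and each library's depth, were not given in the sources used here. Null columns name a clone and a number within it, and each was assigned to its clone. The number of unmapped per-sample columns was 0.

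From these values, limma 3.58.1 in R 4.3.3 (trend and robust eBayes) was fitted here to log2(FPKM + 1) of 14521 genes with a mean of at least 1 FPKM, with Benjamini-Hochberg adjustment over all of them. Clone comparisons used 3 groups of libraries sharing 1 spread per gene, which is that between libraries of a line and not between lines. Null against WT used 2 groups. The test was checked on simulated data in which libraries varied independently. Apart from the changes put in, those data held no spread between lines, so the check does not bear on that spread. Every library's value is given for members past the threshold in a comparison and for the member with the highest WT level of each role. Up to 3 called genes of each pathway list, Lhx5 and Wnt1 were also named. Wnt3, Rspo3, Lgr5, Wnt7a, Ctnnb1, Rnf43, Fzd8 with its library values, single marker genes and genes that overlap a member were named after their values were seen. The 40 genes and the lists were chosen with earlier results of these data known. Genes were placed with GENCODE M21 (GRCm38), and promoter sequences came from RefSeq. Alternatives were another pseudocount, no filter, rescaling of each library by its median ratio, plain eBayes, leaving out each library, fitting only the groups compared, the mean of both clones, and libraries of a line treated as correlated.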

Additional observations from a re-analysis of the deposited data

Results flagged for a closer look

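The null clones differed from each other for 14 genes by limma's test of the difference itself, given here as log2 of clone 2 minus clone 1. The differences were 2.55 for Rspo2, 2.43 for Fzd10, 2.34 for Wnt3a, 1.88 for Wnt5a, 1.44 for Wnt7b, 1.06 for Fzd3, 0.96 for Fzd9, 0.77 for Wls, 0.62 for Wnt5b, 0.5 for Wnt4, 0.36 for Fzd4 and 0.17 for Ryk, and they were -0.19 for Lrp5 and -2.17 for Fzd5. Since both clones were set against the same WT libraries, this is also the test that their differences from WT differ.

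WT replicate 2 stood far from the other 3 WT libraries for 3 genes. It had 18.6 FPKM of Fzd5, against 12.1 to 12.8 FPKM in the others. It had 129 FPKM of Wls, against 144 to 145 FPKM, and 2.32 FPKM of Wnt3a, against 3.79 to 3.92 FPKM. Chance marks about 1 in 20 groups in this way, and 56 were examined.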

How the results depend on the processing

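No direction was reversed in any of the alternatives run. Leaving out 1 library at a time gave 3 to 14 genes called in clone 1 against WT, 2 to 15 in clone 2 against WT, 11 to 16 between the clones and 0 in null against WT. The share of all genes called also changed with the library left out, in each comparison of a clone. Between the clones it was 34.8 to 39.4 percent when 1 WT library was left out. In the mean of both clones from the fit of 3 groups, 4 members passed for null against WT, because that error leaves out the spread between lines. In clone 1, 3 of 13 calls held under every alternative, in clone 2 it was 2 of 14, and between the clones 9 of 14. The count between the clones was 10 when only their 4 libraries were fitted. The share of all genes called was then 25.3 percent, against 39.9 percent with all 8 libraries. Without clone 1 replicate 2 the share of all genes called in clone 1 was 3.05 percent, against 15.6 percent with it, and without clone 2 replicate 2, 174 of 14521 genes were called in clone 2. Without clone 1 replicate 1, by contrast, 10 members were called in clone 1 and 21.4 percent of all genes. The cause was not tested. Treating libraries of a line as correlated (consensus correlation 0.656) left 0 of the 28 members called in null against WT, and 0.0207 percent of all genes. No paired analysis was possible because the null libraries carry numbers inside their clone in the table but running numbers across clones in the sample titles, so the fit with a replicate block was not run. Precision is limited by 2 libraries per clone, by 2 clones, and by a depth that is unknown per library.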
